A study of Mus musculus with 6 samples.

Results

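Lipid droplet and cholesterol efflux genes are followed here through 6 libraries of neutrophils, 3 from liver and 3 from blood. They are 10 genes chosen by symbol, Plin2, Hilpda, Pnpla2, Abca1, Abcg1, Apoe, Lpl, Cd36, Nr1h3 and Lrp1, of 53090 gene rows in each deposited table, and each of the 10 had 1 row. All mice had eaten for 1 week a diet with 3,5-diethoxycarbonyl-1,4-dihydrocollidine (DDC), which injures bile ducts, and no group without the diet was analysed here. Cells were selected with magnetic beads for Ly6G, a surface protein of mouse neutrophils, with a Percoll gradient before the beads for liver suspensions and lysis of red cells for blood. The 2 groups therefore differ in preparation as well as in organ. Strain, sex, age and any pairing of liver and blood libraries by mouse are not stated in the labels, and p-values measure only the spread between these samples.

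Cells store fatty acids and cholesterol as triglycerides and cholesteryl esters in lipid droplets, whose surface is coated by perilipins and whose triglycerides are cut by adipose triglyceride lipase. Surplus cholesterol leaves the cell through ABC transporters onto apolipoproteins, under the control of the oxysterol-sensing liver X receptors. Neutrophils use droplets and fatty acids during maturation, and droplet-laden myeloid cells are known from inflamed tissue.

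Libraries held 13778681 to 17579669 counts in liver and 13054673 to 14403803 in blood. Levels are given as CPM, the depth-scaled count unit on TMM-scaled library sizes, on which 3 counts correspond to 0.181 to 0.263 CPM. Of 14 neutrophil markers 12 passed the filter on low counts, and 8 of these were lower in liver and 0 higher. Their summed level was 7924 to 13602 CPM in liver and 21317 to 32619 CPM in blood. Ly6g itself, the basis of the selection, was at 11.9, 8.79 and 4.50 CPM in liver and at 23.6, 45.6 and 21.3 CPM in blood. Markers of other cells were present beside these. The 12 monocyte markers summed to 3257 to 4145 CPM in liver and 665 to 1031 CPM in blood. Of these, 8 were higher in liver and 1 lower, and none was at 0 over a group. Most of the liver sums was 1 gene of that list, Nr4a1. It was at 2083, 1990 and 2352 CPM in liver and at 364, 138 and 159 CPM in blood. In these bulk libraries a smaller share of a cell type and less RNA per cell cannot be told apart.

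By edgeR's quasi-likelihood test with Benjamini-Hochberg adjustment over 13458 genes, Plin2, Hilpda, Abca1, Apoe and Lrp1 were higher in liver, Pnpla2 was lower, and Abcg1, Lpl, Cd36 and Nr1h3 were not called. That is 5 of 10 genes higher and 1 lower, where the same calls took 17.4% (higher), 14.2% (lower) and 31.6% (either direction) of all genes tested. The 10 genes were chosen with earlier results of these data known, so the counts beside these shares are description and not a test. In 6 of the 10 every liver library lay above every blood library and in 1 every liver library lay below, against 25.8% and 22.7% of all genes. All 10 passed the filter, but Hilpda did so through the liver libraries alone, with 1 of 3 blood libraries above the minimum, and Lpl and Nr1h3 with 2 of 3. The calls of Plin2, Hilpda, Abca1 and Lrp1 held in all 16 alternative analyses, whereas that of Apoe held in 11. Without liver 3 and blood 1, 6 of the 10 were called higher and 0 lower, beside 1631 higher and 1195 lower of 13689 genes tested in all. Among the liver libraries, liver 3 had the most hepatocyte and Kupffer cell marker RNA. Among the blood libraries, blood 1 had the most red cell, platelet and macrophage marker RNA.

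**Figure D1:**
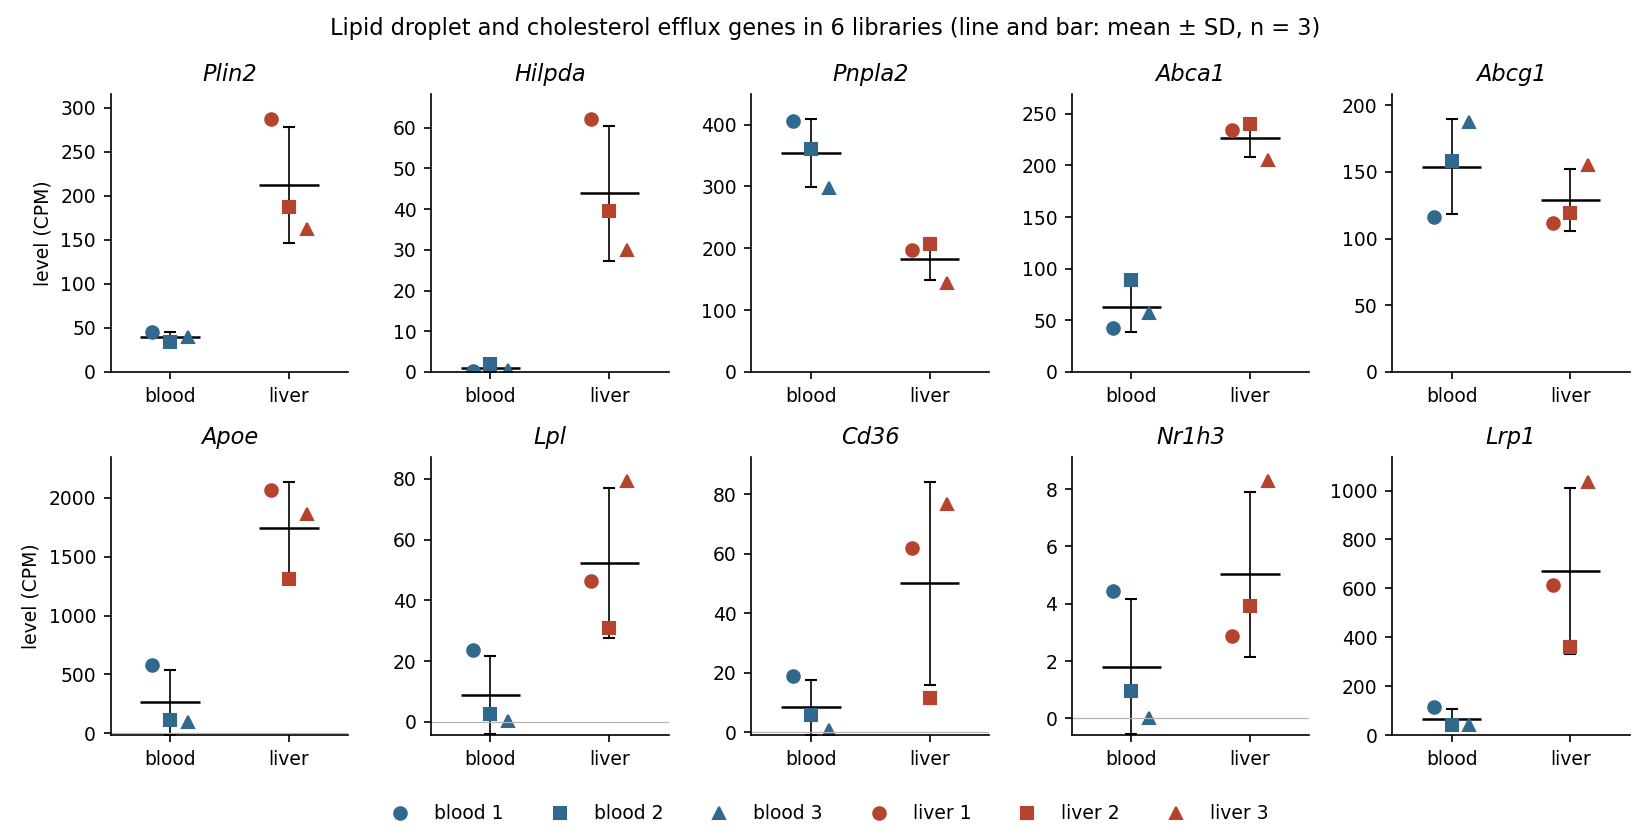
Level of each of the 10 genes in CPM (vertical axes, 1 scale per gene) in the 3 blood and 3 liver libraries. Each point is 1 library, and lines and bars are the mean ± SD (n = 3). Points of the groups do not overlap for Plin2, Hilpda, Pnpla2, Abca1, Apoe, Lpl and Lrp1, and in Lpl, Cd36 and Nr1h3 blood 1 stands above the other blood libraries.

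Plin2 and Hilpda, which encode proteins of the droplet surface, were both higher in liver. Plin2, encoding the perilipin that coats droplets in most cell types, lies at chr4:86648386-86670060 (GRCm38, minus strand). Its level was 287, 188 and 163 CPM in liver 1, 2 and 3 and 44.9, 34.2 and 39.7 CPM in blood 1, 2 and 3. Every liver library stood well above every blood library, and the blood libraries lay close together, with the highest 1.31 times the lowest. The mean of Plin2 was 213 ± 65.9 CPM for liver and 39.6 ± 5.37 CPM for blood (SD over 3 libraries each), 5.37-fold apart, or 2.42 ± 0.25 (SE) on the log2 scale (adjusted p 0.000331 by edgeR). Leaving out each library in turn gave 2.14 to 2.58.

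Hilpda encodes the hypoxia-inducible lipid droplet-associated protein, an inhibitor of adipose triglyceride lipase, and lies at chr6:29272488-29275446 (plus strand). It stood at 62.2, 39.6 and 30.0 CPM in liver and at 0.287, 2.02 and 0.604 CPM in blood. Hilpda was thus plainly present in every liver library and low in blood. There blood 1 and 3 gave 4 and 9 counts, near the limit of detection, and blood 2 gave 23. The difference was 5.54 ± 0.64 on the log2 scale, 46.6-fold, with an adjusted p of 0.000855 by edgeR. Its size leaned on blood 2, without which it was 6.56.

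Pnpla2, which encodes adipose triglyceride lipase, the first enzyme of droplet breakdown and the target of the Hilpda protein, went the other way. The gene lies at chr7:141455198-141460743 (plus strand), and its level was 197, 207 and 144 CPM in liver and 406, 360 and 297 CPM in blood. All liver libraries lay below all blood libraries, and within each group the highest was at most 1.43 times the lowest. Pnpla2 was 1.94-fold lower in liver, or -0.95 ± 0.21 on the log2 scale (adjusted p 0.00911 by edgeR). With liver 3 and blood 1 both left out the value was -0.73, with an adjusted p of 0.0802, and the call was lost.

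The coat gene and the lipase gene were also set against each other within each library, a ratio chosen after their values were seen. Plin2 per Pnpla2, as a ratio of CPM, was 1.46, 0.906 and 1.13 in liver and 0.111, 0.0950 and 0.134 in blood. The ratios of the groups lay 3.35 apart on the log2 scale, or 10.2-fold. An exact two-sided permutation test over the 6 libraries gave p = 0.1, the smallest that 3 against 3 allows, and 0.1 after adjustment over the 2 ratios examined. Since Plin2 was higher and Pnpla2 lower in every liver library, the ratios had to separate the groups, and the test adds nothing to those levels.

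Promoter stretches of 3 genes are shown for the matches they hold to motifs of lipid and oxygen sensing, from RefSeq on GRCm38.p6, 5′ to 3′ on the gene's strand. The table held promoters for 8 of the 10 genes, without Abcg1 and Lpl. The Plin2 stretch is the 250 bases at chr4:86670060-86670309, and its capitals mark a DR1, the direct repeat of AGGTCA half-sites with 1 base between that PPARs read, on the opposite strand with up to 2 mismatches in 12 fixed bases. The Abca1 stretch is the 250 bases at chr4:53159896-53160145, and its capitals mark an E-box (CACGTG) and a DR4, the repeat with 4 bases between that liver X receptors read, on the opposite strand with up to 3 mismatches. The Hilpda stretch is 29 bases at chr6:29272571-29272599 before a second RefSeq start, and its capitals mark the core ACGTG of hypoxia-inducible factors. This stretch lies inside the gene as annotated, and the window at chr6:29272238-29272537, around the annotated start, held no ACGTG.
Plin2: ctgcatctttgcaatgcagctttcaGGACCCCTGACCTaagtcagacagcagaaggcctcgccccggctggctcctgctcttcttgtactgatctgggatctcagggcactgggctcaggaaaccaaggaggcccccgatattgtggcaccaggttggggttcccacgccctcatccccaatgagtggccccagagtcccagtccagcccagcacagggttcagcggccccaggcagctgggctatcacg
Abca1: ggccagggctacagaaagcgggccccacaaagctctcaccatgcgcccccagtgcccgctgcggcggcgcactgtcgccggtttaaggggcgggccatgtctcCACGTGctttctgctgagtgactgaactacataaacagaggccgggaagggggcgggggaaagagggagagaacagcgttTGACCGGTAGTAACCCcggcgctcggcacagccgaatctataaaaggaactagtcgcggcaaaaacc
Hilpda: gatggccagcggACGTGccccagggcgag

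On both strands of 300-base windows, a DR1 with up to 2 mismatches was in 3.86% of all 32851 promoters and ACGTG in 19.6%. CACGTG was in 7.15%, and since its 2 strands read alike, it holds ACGTG on each. Plin2 also has an E-box, which spans its start site and is not in the stretch shown. The Cd36 promoter also held a DR1 with up to 2 mismatches, 63 bases before the start. With up to 2 mismatches a DR4, found in 3.02% of promoters, was in none of the promoters searched for these genes, and the match in Abca1 came from a search with up to 3, added after that result, which 21.9% of promoters pass. The match is a description of letters in the window.

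Of the efflux genes, Abca1 was higher in liver and Abcg1 was not called. Abca1 encodes the transporter that loads cholesterol onto lipid-poor apolipoproteins and lies at chr4:53030787-53159895 (minus strand). Its level was 234, 240 and 205 CPM in liver and 42.1, 89.0 and 57.1 CPM in blood. The liver libraries were nearly equal, within 1.17 times of each other, and all lay above the blood libraries. Abca1 was 3.61-fold higher, 1.85 ± 0.27 on the log2 scale, with an adjusted p of 0.00140 by edgeR and 1.58 to 2.17 when each library in turn was left out.

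Abcg1, a second liver X receptor target whose product moves cholesterol toward mature HDL, lies at chr17:31057675-31117988 (plus strand). Its level was 112, 119 and 155 CPM in liver and 116, 158 and 188 CPM in blood, and the groups overlapped. The log2 difference was -0.26 ± 0.22 (adjusted p 0.414 by edgeR), and no alternative called it. The ratio of Abca1 to Abcg1 in CPM, also chosen after the values were seen, was 2.10, 2.01 and 1.32 in liver and 0.362, 0.564 and 0.304 in blood. That is a log2 difference of 2.16, or 4.47-fold, with p = 0.1 in the exact permutation test, again the smallest it can give. Abca1 was at 205 to 240 CPM in liver and 42.1 to 89.0 CPM in blood, with Abcg1 between 112 and 188 CPM throughout. The ratios therefore had to separate the groups, and the test adds nothing to those levels.

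Nr1h3 encodes liver X receptor alpha, which drives both transporter genes, and lies at chr2:91184061-91202834 (minus strand). It had 2.87, 3.91 and 8.30 CPM in liver and 4.46, 0.964 and 0 CPM in blood. Blood 1 lay above 2 of the liver libraries, while blood 3 had 0 counts, so the groups overlapped. The log2 difference of Nr1h3 was 1.47 ± 1.14 (adjusted p 0.363 by edgeR), and 3.39 with 0.0603 without blood 1. A transcript named Gm13783 overlaps 34 of its exon bases and had at most 2 counts in any library.

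Apoe encodes apolipoprotein E, a cholesterol acceptor made by macrophages and hepatocytes, and was the most abundant of the genes per length in liver. It lies at chr7:19696109-19699188 (minus strand). Its level was 2062, 1312 and 1864 CPM in liver and 583, 110 and 93.8 CPM in blood. The liver libraries lay above the blood libraries, and blood 1 stood far above the other blood libraries, at 6.21 times the lowest. Apoe was 6.66-fold higher, 2.74 ± 0.75 on the log2 scale, with an adjusted p of 0.0340 by edgeR. The call was lost without liver 1 (adjusted p 0.0829), liver 2 (0.0683), liver 3 (0.105) or blood 2 (0.0871), and without the filter on low counts (0.166). Without blood 1 the difference was 4.06, with an adjusted p of 0.000482.

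Lrp1, encoding a large endocytic receptor for apolipoprotein E and many other ligands, was also higher in liver. It lies at chr10:127538161-127621148 (minus strand), and its level was 616, 362 and 1034 CPM in liver and 115, 41.8 and 41.0 CPM in blood. Even the lowest liver library exceeded the highest blood library, although liver 3 had 2.85 times the level of liver 2. Lrp1 was 10.2-fold higher, 3.35 ± 0.56 on the log2 scale, with an adjusted p of 0.00438 by edgeR, and 3.97 without blood 1. Like Plin2, Pnpla2, Apoe, Lpl, Cd36 and Nr1h3, it had its highest blood level in blood 1.

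Lpl and Cd36, which serve fatty acid supply, were not called. Lpl encodes lipoprotein lipase, which frees fatty acids from circulating triglycerides, and lies at chr8:68880491-68907448 (plus strand). Its level was 46.3, 31.0 and 79.3 CPM in liver and 23.6, 2.72 and 0.201 CPM in blood. The groups did not overlap, yet the blood libraries spanned 117-fold, and blood 3 held 3 counts. The log2 difference of Lpl was 2.56 ± 1.38 (adjusted p 0.216 by edgeR). It was called without blood 1, at 5.17 with an adjusted p of 0.0109, by limma-voom on all libraries, at 4.35 with 0.0182, and without liver 3 and blood 1, at 4.75 with 0.0234. Without blood 3 it was 1.95 and not called.

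Cd36, encoding a scavenger receptor that takes up fatty acids and oxidised lipoprotein, lies at chr5:17781690-17888801 (minus strand). It had 61.9, 11.6 and 76.8 CPM in liver and 18.8, 5.70 and 0.671 CPM in blood. Liver 2 lay below blood 1, so the groups overlapped, and both groups were widely spread. The log2 difference of Cd36 was 2.58 ± 1.22 (adjusted p 0.165 by edgeR), and no alternative called it.

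**Figure D2:**
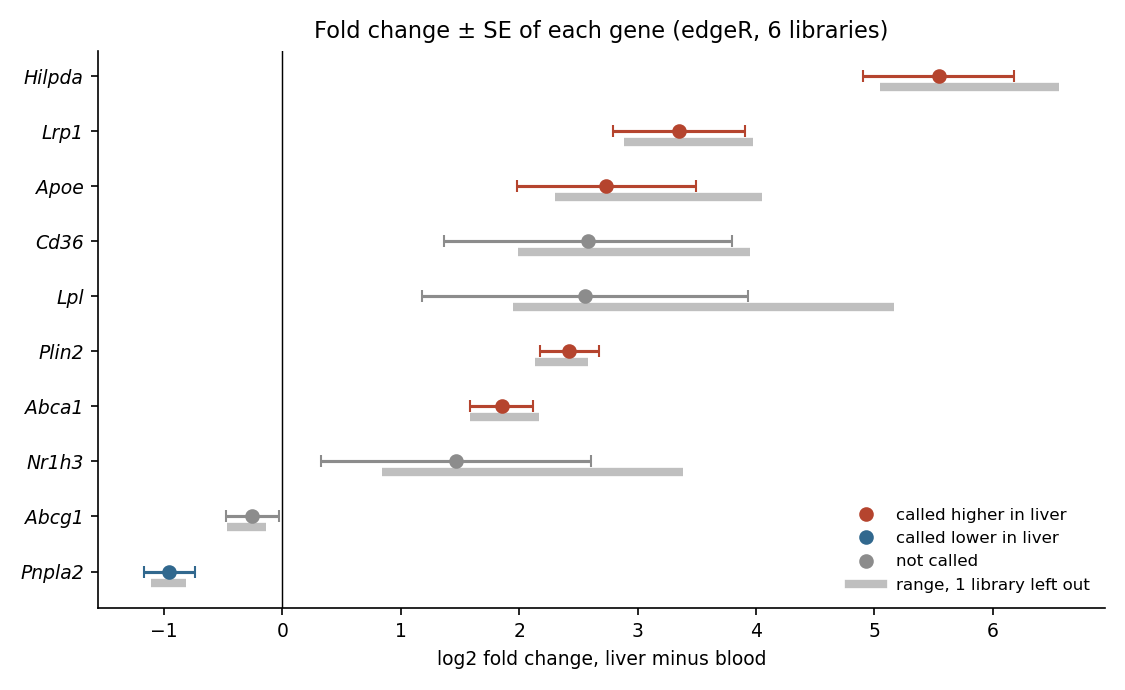
Log2 fold change of liver against blood (horizontal axis) for each of the 10 genes by edgeR, with bars for the SE and grey bands for the range when each library in turn was left out. The bands are narrow for Plin2 (2.14 to 2.58) and Abca1 (1.58 to 2.17) and wide for Lpl (1.95 to 5.17), Cd36 (1.99 to 3.95) and Nr1h3 (0.84 to 3.39).

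Kupffer cell and macrophage markers shared an order of libraries with some of these genes. Of 16 Kupffer cell and macrophage markers 14 passed the filter, 6 were higher in liver and 0 lower, and none was at 0 over a group. Their summed level was 619 to 1003 CPM in liver and 369 to 594 CPM in blood, most of the latter Csf1r, which was at 340, 351 and 287 CPM there. C1qa, a complement gene of resident macrophages, was at 16.4, 16.6 and 26.2 CPM in liver and at 16.5, 0.613 and 0 CPM in blood. Cd5l, another, was at 49.5, 12.7 and 120 CPM in liver and at 45.6, 1.05 and 0 CPM in blood. Lpl, Cd36 and Nr1h3 share with these the order blood 1, blood 2, blood 3, and Apoe, Lrp1 and Pnpla2, the last lower in liver, do too, while Plin2, Hilpda and Abca1 have blood 2 at their lowest, highest and highest level. Clec4f, which marks Kupffer cells, was at 17, 5.12 and 59.8 CPM in liver and at 0.359, 0 and 0 CPM in blood. The order of the blood libraries is not particular to macrophage markers. Sums of the monocyte, hepatocyte, platelet and erythroid markers, among other lists, had it too, with platelet markers at 315, 96.3 and 41.8 CPM. Sums of the neutrophil, dendritic cell and B cell markers were highest in blood 2, and the share of all genes with the order was not counted. The part of RNA from macrophages or these other cells in the levels of Apoe, Lrp1, Lpl, Cd36 and Nr1h3 was not tested.

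Monocyte and hepatocyte markers were higher in liver as well. Ccr2, of inflammatory monocytes, was at 78.0, 78.4 and 96.1 CPM in liver and at 10.6, 6.13 and 2.22 CPM in blood, whereas Ly6c2 was not called. Of 14 hepatocyte markers 8 passed the filter and 5 were higher, and none was at 0 over a group. They summed to 19, 153 and 248 CPM in liver and 1.34 to 7.62 CPM in blood. Alb, the main hepatocyte transcript, was at 7.25, 73.2 and 148 CPM in liver. Among the liver libraries Plin2, Hilpda and Apoe were highest in liver 1, which had the least Alb. Lrp1, Lpl, Cd36, Nr1h3 and Abcg1 were highest in liver 3, which had the most Alb, and Pnpla2 and Abca1 in liver 2. Of 7 liver endothelium markers tested 6 were higher in liver, with a sum over the list of 135 to 162 CPM there and 33.1 to 66.1 CPM in blood. Of 11 dendritic cell markers 4 were higher, with sums of 360 to 554 CPM in liver and 48.3 to 351 CPM in blood. Platelet markers were lower for 4 of 7 tested, and none of 7 erythroid markers was called, although they summed to 143 to 2730 CPM in liver and to 33698, 14773 and 367 CPM in blood 1, 2 and 3. The part of RNA from monocytes, hepatocytes and these other cells in the differences was not tested.

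**Figure D3:**
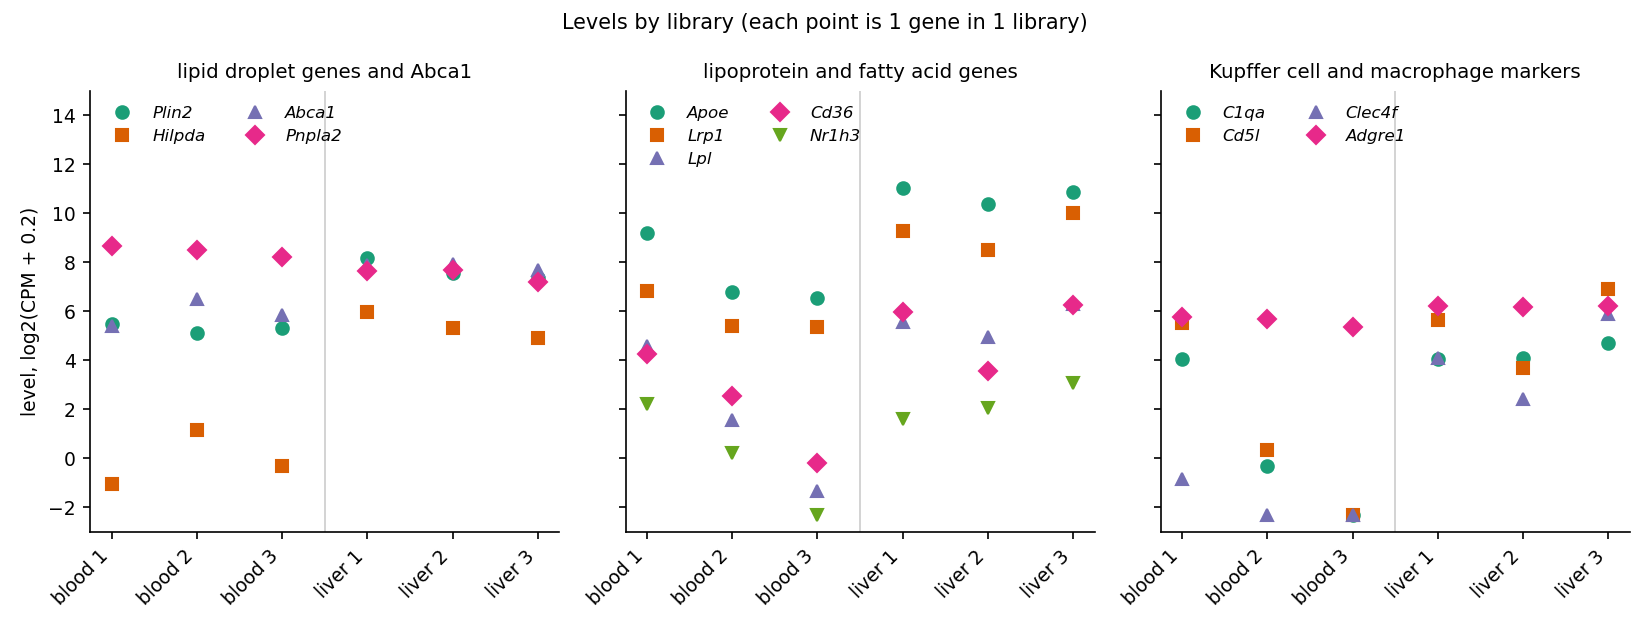
Level of single genes as log2(CPM + 0.2) (vertical axis) in blood 1 to 3 and liver 1 to 3 (horizontal axis), for droplet genes with Abca1, lipoprotein and fatty acid genes, and Kupffer cell and macrophage markers. Each point is 1 gene in 1 library. Lpl, with 23.6, 2.72 and 0.201 CPM in blood 1, 2 and 3, steps down there as C1qa and Cd5l do, and Plin2 and Abca1 do not.

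The genes also sat at very different levels relative to one another, compared here as CPM per kilobase of exon. In liver Apoe led with 817 ± 182 (SD, n = 3), apart from all others. Pnpla2 at 60.6 ± 11.2 and Plin2 at 60.5 ± 18.8 came next, then Hilpda (39.8), Lrp1 (37.9), Abca1 (21.8), Abcg1 (17.7), Cd36 (14.0), Lpl (4.98) and Nr1h3 (2.00), and each of these overlapped its neighbour in library range. In blood Apoe (123 ± 130) and Pnpla2 (117 ± 18.2) overlapped at the top. Abcg1 (21.1 ± 4.91) and Plin2 (11.3 ± 1.53) followed, each apart from its neighbours. Abca1 (6.05), Lrp1 (3.71), Cd36 (2.33), Hilpda (0.878), Lpl (0.843) and Nr1h3 (0.718) overlapped one after another. In level per length Abca1 thus stood below Abcg1 in each blood library, and Plin2 below Pnpla2.

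For each gene at 10 CPM or more, the genes nearest in profile over the 6 libraries were found by the root mean square difference of centred log2 CPM, among 6790 genes. Plin2 was nearest to Tmem132a (0.173), P2ry6 and Hmga1, and Abca1 to Psd (0.134), 1700017B05Rik and Clec4e. Hilpda was nearest to Lif (0.30), Cxcl3 and Cxcl1, the first a cytokine gene and the others chemokine genes. None of the 20 nearest genes of Plin2, Abca1, Pnpla2 or Abcg1 was on a marker list. Apoe was nearest to Cx3cr1 (0.231), Slc7a8 and Dusp3, and 3 of its nearest 20 were on the monocyte list, Cx3cr1, F13a1 and Nr4a1. Lrp1 was nearest to Vcan (0.239) and Ifi207, also with 3 genes of the monocyte list, Nr4a1, F13a1 and Fn1, and it had Apoe among its 20. Lpl was nearest to Sdc3 (0.211), C1qa and C1qb, with 4 macrophage markers among 20. Cd36 was nearest to Ace (0.482), Ear2 and Hpgd, of which Ace is on the monocyte list. Pnpla2 was nearest to AB124611 (0.0527), Map3k15 and Ppp1ca, and Abcg1 to Ankrd27 (0.0897), Abhd17b and 2900097C17Rik.

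Among 13 other droplet coat and lipolysis genes tested, of 20 listed, 5 were lower in liver and 0 higher. Of all genes tested 14.2% were lower and 17.4% higher. The list had a median log2 fold change of -0.26 against 0.04 over all genes. This list and those below were also chosen with earlier results of these data known, and their counts are description only. In 8 of 16 alternatives, among them DESeq2, limma-voom and the analysis without blood 2, 1 gene of this list, G0s2, was called higher. The lower ones were the perilipin genes Plin4 and Plin5, the lipases Lipe and Mgll, which act after adipose triglyceride lipase, and Hsd17b11. Lipe, encoding hormone-sensitive lipase, was at 28.7, 38.2 and 38.7 CPM in liver and at 73.3, 106 and 78.9 CPM in blood, -1.29 ± 0.22 on the log2 scale (adjusted p 0.00267). All its liver libraries lay below its blood libraries, as for Pnpla2. Mgll was at -1.41 on the log2 scale, Hsd17b11 at -0.90, Plin5 at -2.45 and Plin4, named after its value was seen, at -2.92, and all 5 calls held in every alternative. Plin2 was thus higher while Plin4 and Plin5 were lower, at no more than 3.19 CPM in any liver library.

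Pnpla2's product is also held in check by the G0s2 protein and activated by that of Abhd5, both named after their values were seen. G0s2 was at 957, 730 and 586 CPM in liver and at 282, 469 and 113 CPM in blood. The groups did not overlap, but with a log2 difference of 1.40 ± 0.46 G0s2 just missed the call, with an adjusted p of 0.0512 by edgeR, and 8 of 16 alternatives called it, among them DESeq2 (0.00673) and the analysis without blood 2 (0.0151). Abhd5 was at 26.8, 28.6 and 17.1 CPM in liver and at 22.6, 30.2 and 17.8 CPM in blood, with an adjusted p of 0.929.

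Cholesterol synthesis genes were tested in full, with 12 of 25 higher in liver, 0 lower and a median log2 fold change of 0.92. Without liver 2 the count of lower genes was 1. The count of higher genes was 8 without blood 1, 8 without blood 3 and 7 without liver 3 and blood 1 together. Insig1, whose product holds SREBP in the endoplasmic reticulum, was at 33.2, 30.5 and 37.9 CPM in liver and at 6.40, 9.29 and 9.20 CPM in blood, 4.08-fold higher (adjusted p 0.000752). All its liver libraries lay above its blood libraries. Fdft1, the squalene synthase gene, was 7.31-fold higher (2.87 on the log2 scale, 2.27 without liver 2). Cyp51 was higher by 1.71, a call lost without liver 1 (0.0562), blood 1 (0.0550) or blood 3 (0.0575). Srebf2, the transcription factor gene of this set, chosen after its value was seen, was 2.71-fold higher and called in every alternative.

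Of 17 other efflux genes, liver X receptor partners and targets tested, 4 were higher, 3 lower and the median was 0.42. These counts are not far from the shares of all genes, 17.4% higher and 14.2% lower. Apoc1 (3.71, or 2.99 without liver 3) and Apoc2 (2.74), neighbours of Apoe that encode small apolipoproteins, were higher with Scarb1 and Cyp27a1. Scarb1, at 1.46, lost its call without liver 1 (0.111), liver 3 (0.122), blood 1 (0.0736) or blood 3 (0.0691). Cyp27a1, which encodes a sterol 27-hydroxylase, was at 3.67, at 5.20 without blood 1 and at 3.07 without blood 3. Lower were the corepressor gene Ncor1 (-1.04), the transporter gene Abca7 (-0.85, lost without liver 1 at 0.0636) and the coactivator gene Ncoa1 (-0.71). Ncoa1 lost its call without liver 2 (0.0985), liver 3 (0.0628), blood 1 (0.0898) or blood 3 (0.0704), and it, Abca7 and Cyp27a1 were named after their values were seen.

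Of 15 lysosomal and intracellular cholesterol handling genes tested, 5 were higher and 1 lower, against 17.4% and 14.2% of all genes. Without liver 2 the count of lower genes in the list was 2. Lipa, encoding the acid lipase that frees cholesterol from lipoprotein esters, was at 107, 114 and 128 CPM in liver and at 46.4, 47.1 and 35.1 CPM in blood, 2.71-fold higher with an adjusted p of 0.000966. Npc1 and Npc2, which pass that cholesterol out of the lysosome, were 2.05-fold and 1.96-fold higher, Npc1 not called without liver 3 and blood 1 together (0.0645). Stard4, a sterol carrier, was higher by 2.56 on the log2 scale and Osbpl2 lower at -1.42. Nceh1 was higher by 1.52, a call lost without liver 1 (0.0968), liver 3 (0.130), blood 1 (0.0501), blood 2 (0.0764) or blood 3 (0.0717). Npc2 and Stard4 were named after their values were seen.

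Of 19 other lipoprotein and fatty acid uptake genes tested, 8 were higher and 2 lower, against 17.4% and 14.2% of all genes. The median of the list was 1.33. The count of higher genes was 4 without liver 3, 5 without liver 1 and 5 without blood 3, and that of lower genes was 1 without liver 1, blood 2 or blood 3. Olr1, encoding the scavenger receptor LOX-1, was at 98.7, 70.8 and 100 CPM in liver and at 2.01, 1.31 and 5.03 CPM in blood, 31.7-fold higher (4.99 on the log2 scale, 5.69 without blood 3). Msr1 and Marco, scavenger receptor genes of macrophages, were higher by 3.31 and 5.64. Msr1 was at 4.58 without blood 1 and lost its call without blood 2 (0.0593). Marco, itself on the macrophage list, lost its call without liver 1 (0.0798), liver 3 (0.0904, at 4.50), blood 2 (0.106) or blood 3 (0.0745), by limma-voom (0.0704) and without the filter on low counts (0.151). All its 23 blood counts lay in blood 1, without which the fitted difference of 11.70 stands against 0 counts and gives no size. The sorting receptors Sort1 (-1.34) and Sorl1 (-0.88), the latter named after its value was seen, were lower, and Sorl1 lost its call without liver 1 (0.0753), blood 2 (0.0527) or blood 3 (0.0534).

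Of 16 triglyceride synthesis genes tested 3 were higher, near the share of all genes, and 1 was lower. Acsl4, which activates polyunsaturated fatty acids, was 2.44-fold higher and Agpat2 2.12-fold lower, while Agpat4 (1.54) was not called without liver 1 (0.0519). Lpin1 (2.16), named after its value was seen, was not called without liver 1 (0.0558), liver 3 (0.10) or blood 2 (0.0690), and without liver 1 the counts were 1 higher and 2 lower. Of 20 PPAR and fatty acid oxidation genes tested, 2 were higher and 2 lower, each below the share of all genes. Hadh (6.66-fold) and Etfa (2.82-fold) were higher and Cpt1a (1.79-fold) and Cpt2 (2.41-fold), both genes of the carnitine shuttle, lower. Of these, Hadh alone kept its call whichever library was left out. Etfa lost it without liver 1 (0.0509), blood 2 (0.0522) or blood 3 (0.0507), Cpt1a without liver 2 (0.111), liver 3 (0.0950), blood 1 (0.103) or blood 3 (0.0754), and Cpt2 without liver 1 (0.0769), liver 2 (0.0694) or blood 3 (0.0575). The counts ran from 1 to 4 higher (4 without blood 1, 1 without liver 1 or blood 3) and from 0 to 2 lower (0 without liver 2 or blood 3, 1 without liver 1, liver 3 or blood 1). Hadh, Etfa and Cpt1a were named after their values were seen.

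The hypoxia-inducible genes, of interest beside Hilpda, gave 3 higher and 1 lower of 19 tested, each below the share of all genes, with a median of -0.11. Vegfa, an angiogenic factor, was at 758, 394 and 364 CPM in liver and at 65.8, 66.2 and 47.5 CPM in blood, with its highest level in liver 1 like Hilpda and Plin2. Epas1, encoding HIF-2 alpha and named after its values were seen, was at 3.07, 5.78 and 6.75 CPM in liver, and blood held 2 counts in all. Ero1l was higher by 1.12, a call lost without liver 1 (0.0677), liver 2 (0.0847), blood 1 (0.0865) or blood 3 (0.0700). Bnip3l was lower at -1.06, but at -0.83 and not called without liver 3 and blood 1 together (0.0899). The other 15 genes tested were not called. The count of higher genes was 5 without blood 2 and 2 without liver 1, liver 2, blood 1 or blood 3, and that of lower genes was 2 without liver 1.

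**Figure D4:**
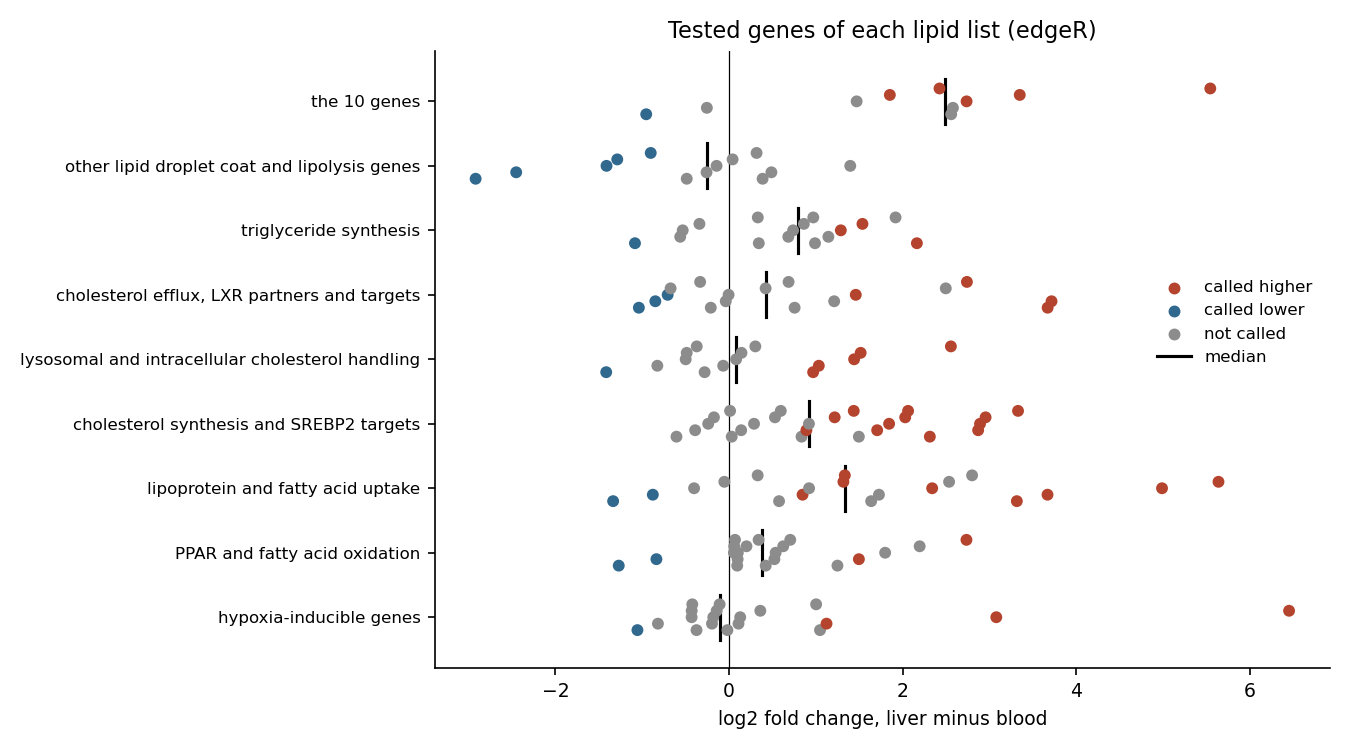
Log2 fold change of liver against blood (horizontal axis) for the tested genes of each lipid list and of the 10 genes, by edgeR. Each point is 1 gene, coloured by its call, and black bars are medians. The other droplet coat and lipolysis genes have 5 points called lower and 0 higher, and the cholesterol synthesis genes 12 called higher and 0 lower.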

How the data were processed

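RNA was measured in 6 libraries made with a stranded low-input total RNA kit, per the labels' protocols. The authors deposited expected counts per gene from RSEM after STAR alignment to GRCm38, and FastQC 0.11.5 and limma are also named, per the submitters' processing notes. Filters and strand settings of counting are not recorded in those notes, so overlapping genes cannot be told apart with certainty. Of the gene identifiers, 98.7% matched GENCODE M21, which gave coordinates and exon lengths.

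Expected counts were rounded, filtered (filterByExpr, minimum count 10, minimum total 15), TMM-scaled and tested with edgeR 4.0.16 in R 4.3.3 by a robust quasi-likelihood test over all 6 libraries. p-values were adjusted by Benjamini-Hochberg over 13458 genes, with calls at an adjusted p under 0.05. DESeq2 1.42.0 and limma 3.58.1 (voom) served as alternatives, with other scalings, filters, a replicate block and left-out libraries. Floors of 3 counts cover counting error only. No pair of libraries within a group was 1 library deposited again (chi-square per degree of freedom 52.1 to 79.0).

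The genes and the lists were chosen with earlier results of these data known. Named beside the 10 genes are, per list, up to 4 called genes with groups that do not overlap and at least 10 CPM in the higher group, by largest change, the 3 genes nearest in profile and defining markers. Genes outside this rule are said to be named after their values were seen, and a few genes within it are not reported here.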

Additional observations from a re-analysis of the deposited data

How the results depend on the processing

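Over the 16 alternatives 4 to 6 of the 10 genes were called higher in liver, and 1 was called lower except without liver 3 and blood 1 together, where 0 were and 1195 genes in all were called lower. Leaving out each library in turn gave 4 to 6 of the 10 genes higher and 1 lower, 1732 to 1993 genes of all higher and 1323 to 1626 lower. No direction of the 10 genes turned. That of Abhd5, at 0.04, was -0.05 without liver 1, -0.11 without liver 2, -0.04 without blood 1, -0.18 without blood 3 and, at the other end, 0.24 without blood 2. The numbers of the libraries were checked for pairing by the correlation of deviations from the group means, which was 0.054, 0.16 and 0.023 for libraries of the same number, and liver 1 and liver 2 but not liver 3, at 0.12 with blood 1, correlated best with their own number. Not every pair passed 0.1, so the numbers were not taken to pair the libraries. With the replicate block 5 of the 10 genes were higher and 1 lower, and 2322 and 2312 of all genes, and the calls of Scarb1 (0.0809), Lpin1 (0.0848) and Marco (0.0579) were lost, G0s2 was called (0.0225), and no other call among the genes given with a fold change was altered. Precision is limited by 3 libraries a group, by low counts in blood for Hilpda, Lpl and Nr1h3, and by the spread between blood libraries for Apoe, Lpl and Cd36.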
